A study of Rattus norvegicus with 4 samples.

Results

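The genes described here encode the proteasome, chosen by symbol: every row whose name begins with Psm, a letter from a to g and a digit, without use of any measured value. The rule found 50 of the 22714 genes listed in each input table, under 49 symbols, because Psmb6 has 2 rows. Of the symbols, 46 averaged 10 counts or more over the 2 input libraries. One of these, Psmc3ip, is a meiotic recombination factor that matches by name only. The same test found 17 of 8192 m6A peaks in untreated neurons and 20 of 8183 in exposed neurons.

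The cells were primary rat hippocampal neurons, either untreated or exposed to bisphenol A (BPA, a plasticiser) at 1 mM for 48 h from day 12 in vitro. The exposure end is labelled day 14 for the BPA-IP sample and day 13 for the BPA-Input sample. All cultures received Ara-C, which stops dividing cells, on day 7 (1 µL per ml of a 4 mM stock). RNA was sequenced before (Input) and after (IP) pull-down with an antibody against m6A, the methylated adenosine of mRNA, giving 1 library in each of the groups Ctrl-Input, Ctrl-IP, BPA-Input and BPA-IP. For strain, age and sex of the rats the sources used here give nothing, nor do they say how many animals were pooled.

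No group had a replicate. Every difference below is therefore between 2 libraries, has no replicate check and carries no p-value, and its interval covers read counting only. The deposited counts summed to 9837064 in the Ctrl input and 9774929 in the BPA input. The labelled cell type was present: all 7 neuronal markers (Map2, Tubb3, Rbfox3, Snap25, Syt1, Slc17a7 and Gad1) were detected, with FPKM (fragments scaled to transcript length and to the reads mapped) between 27.3 and 269 in the Ctrl input. Astrocyte RNA was also abundant. The 5 astrocyte markers summed to 5981 FPKM in the Ctrl and 5511 in the BPA input, against 1119 and 1207 for the neuronal markers. Microglial markers summed to 30.6 and 32.4 FPKM. In such bulk samples fewer cells of a type and less RNA per cell cannot be told apart.

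The proteasome degrades proteins tagged with ubiquitin. Its barrel, the 20S core particle, is built of outer alpha rings (Psma genes) and inner beta rings (Psmb genes) and encloses the proteolytic sites. A 19S regulatory particle caps the barrel: its ATPase ring (Psmc genes) unfolds the substrate, and its non-ATPase subunits (most Psmd genes) bind and remove ubiquitin. Psme genes encode other caps, Psmf1 an inhibitor, and the Psmg genes with Psmd5, Psmd9 and Psmd10 chaperones of assembly. In neurons the proteasome takes part in the turnover of synaptic proteins. Interferon exchanges the proteolytic subunits for Psmb8, Psmb9 and Psmb10, which form the immunoproteasome.

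Core and regulatory subunits were present at similar levels, and the interferon-inducible subunits and most chaperones at lower ones. On the FPKM scale, the 14 constitutive core subunits had a median level of 91.6 in the Ctrl and 96.1 in the BPA input. The 17 subunits of the regulatory particle had 72.1 and 65.5. Levels were more even in the regulatory particle than in the core: the coefficient of variation of the Ctrl FPKM was 0.298 against 0.478. The lowest alpha subunits with reads, Psma2 and Psma3 (23.4 and 60.7 Ctrl FPKM), had the longest transcripts of the core by count and FPKM. These were 3.70 and 3.37 kb, against a core median of 0.856 kb. Neither the difference between these coefficients nor the part of length in it was tested.

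Psma6, an alpha subunit, had the highest level of all members, 194 FPKM in both inputs. Psmb4, a beta subunit without proteolytic activity, followed with 181 and 180 FPKM. The lowest alpha subunit with reads was Psma2, at 23.4 and 24.0 FPKM, although its 852 and 874 counts were close to those of other alpha subunits. Its count and FPKM together imply a transcript of 3.70 kb, against a median of 0.856 kb for the core particle. Among the constitutive beta subunits the lowest was Psmb6, with 63.5 and 67.9 FPKM, next to Psmb3 with 63.6 and 68.2.

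In the regulatory particle the highest levels belonged to the scaffold subunit Psmd2, with 115 and 112 FPKM, and to the ATPase Psmc1, with 103 and 99.7 FPKM. The ATPase Psmc5 was the lowest of its ring, at 45.7 FPKM in the Ctrl input. The lid subunit Psmd11 was the lowest non-ATPase, at 34.6 and 31.8 FPKM. The chaperones lay below every subunit of the regulatory particle and, apart from Psma2, every constitutive core subunit. Psmg1 and Psmg4 lay near 30 FPKM, with 30.5 for each in the Ctrl input, and Psmg3 had 10.7. Of the chaperones of the regulatory particle, Psmd5 had 30.5 and 31.5 FPKM, and Psmd10 (gankyrin) 3.34 and 3.67, on 11.1 and 12.3 counts. Psme4, a large nuclear cap, had 52.8 and 51.1 FPKM, Psme1 had 55.8 and 57.1, and the inhibitor Psmf1 had 33.0 and 33.3.

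**Figure D1:**
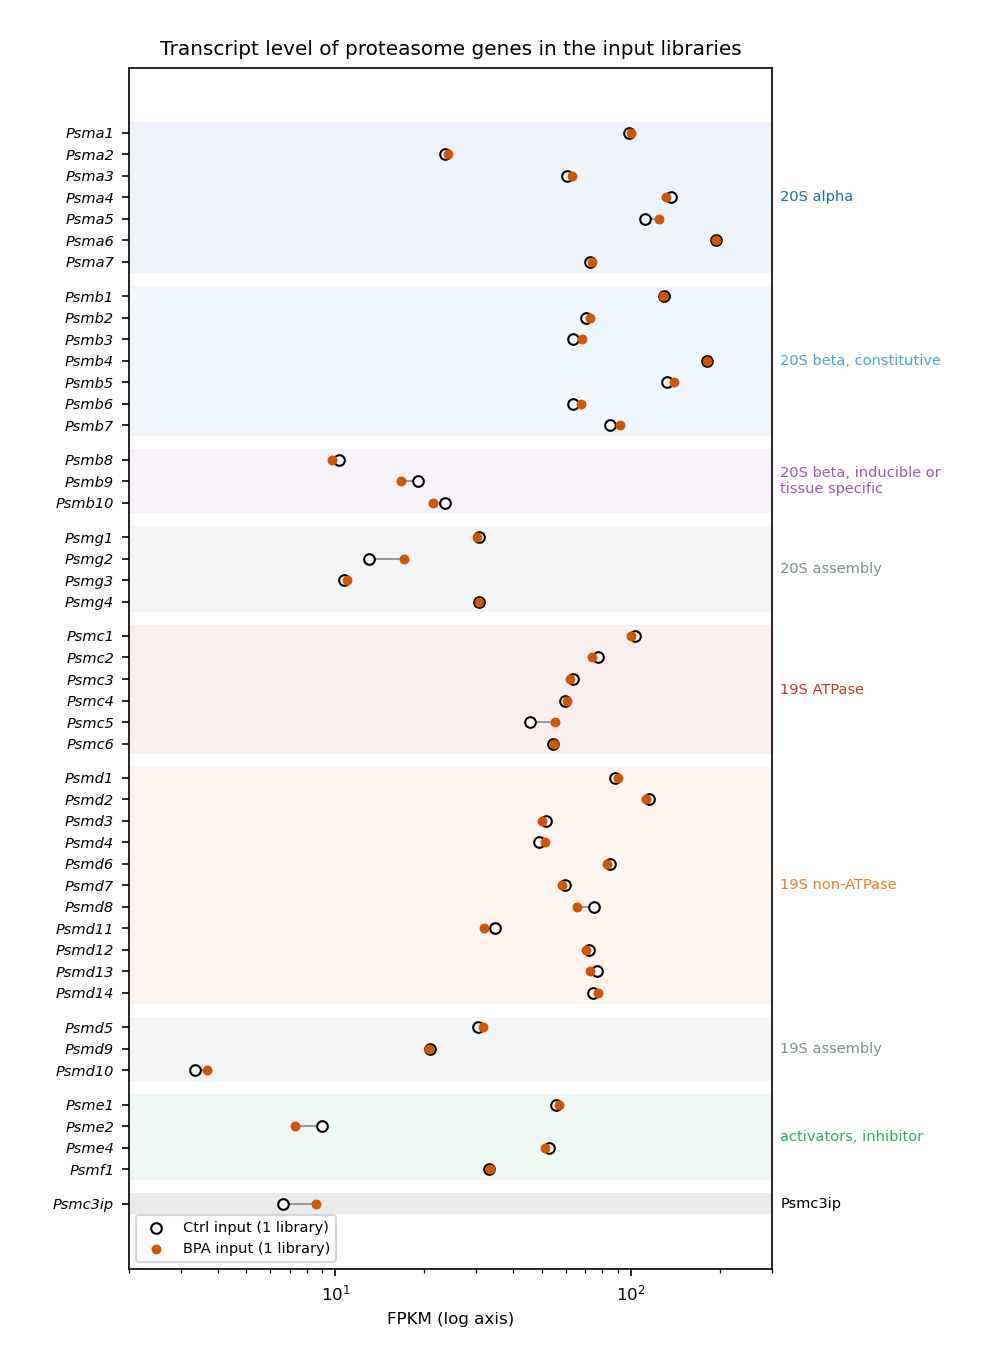
FPKM (log axis) of the 46 members with a mean of at least 10 counts, open circles for the Ctrl input and filled circles for the BPA input, 1 library each, grouped by role. The circles of a gene nearly coincide, Psma6 and Psmb4 are highest at 180 to 194 FPKM, and the immunoproteasome subunits lie below the constitutive beta subunits.

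The constitutive proteolytic subunits had higher levels than their inducible counterparts in both inputs. Psmb5, which carries the chymotrypsin-like site, had 133 FPKM in the Ctrl and 139 in the BPA input, and its counterpart Psmb8 had 10.3 and 9.73. The FPKM ratio of this pair was 12.9 and 14.3. Psmb6 (caspase-like) exceeded Psmb9 3.35-fold in the Ctrl and 4.08-fold in the BPA input, and Psmb7 (trypsin-like) exceeded Psmb10 3.62-fold and 4.31-fold. In all 3 pairs the ratio was larger in the BPA input, while the counting interval of each of the 6 genes' own ratios, given below, held 1.

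A few members were not measurable as listed. Psma8, the alpha subunit of testis, had 0 counts in both inputs, and a count of 0 allows up to 3 reads. Psmb11, of the thymus, had 10.1 and 6.13 counts. The second Psmb6 row, a short locus on chromosome 2 while its annotation gives chromosome 10, had 4.04 and 9.20 counts against 343 and 368 for the main row. Reads may have been split between these copies, so the Psmb6 values are uncertain by that amount. Psme3, a nuclear cap found in most cell types, had 2.06 and 1.15 counts. Its locus in the files, chr10:89034248-89109170, is shared with 3 other rows, of which one named G6PC had 963 and 1104 counts and the others at most 2.16. Over the 4 rows the locus held 967 and 1105 counts. How the reads of this locus were divided between its genes was not tested, and the level of Psme3 is therefore uncertain.

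The inputs compare transcript levels between 1 library of exposed and 1 of untreated cultures, in which astrocyte RNA was also abundant. No member differed by 2-fold or more, where 263 of the 13006 genes averaging 10 counts or more (2.02%) did. Genes of the depth of the members other than Psmd10 (mean counts from 57.9 to 4123) passed 2-fold in only 0.444%, so the absence of such members is near the background. The median log2 ratio of BPA over Ctrl, taken as log2((BPA + 1)/(Ctrl + 1)) of the counts, was 0.01 over the 46 members and 0.0019 over all genes. Of the members, 25 were higher and 21 lower in the BPA input.

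The log2 ratios of the members were less spread than those of all genes in the depth range above. The members had an interquartile range of 0.0910 and a standard deviation of 0.123, against 0.202 and 0.274 over the 10349 genes of that range. Those genes were not matched in depth to the members gene by gene, and their log2 ratios ran from -8.04 to 5.44. For 4 of 46 members (8.70%) the 95% counting interval of the ratio left out 1, against 18.7% of all genes and 18.7% in the depth range. In 3 of the 4 the BPA input was higher, where 9.36% of all genes were, and in 1 lower, where 9.37% were. As a sum, the members held 42690 counts in the Ctrl and 42628 in the BPA input, a ratio of 0.999 (95% interval 0.985 to 1.01). Their share of all counts was 0.434% and 0.436%. The mitochondrial ribosomal proteins, another large complex, had an interquartile range of 0.212 over 70 genes, and the cytosolic ribosomal proteins 0.162 over 90 genes. Their mean counts ran from 16.2 to 754 and from 12.3 to 4764, against 11.7 to 4123 for the members. The interval left out 1 in 6 of the 70 mitochondrial genes (8.57%), a share like that of the members, and in 18 of the 90 cytosolic ones (20%). These differences in spread were not tested.

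**Figure D2:**
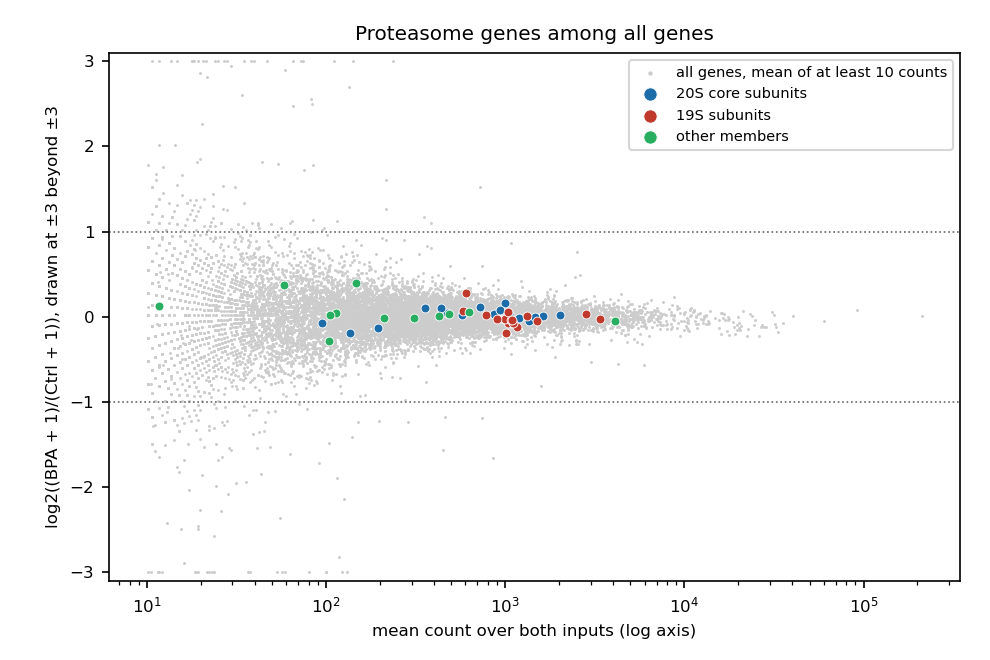
Log2 ratio of BPA over Ctrl input against the mean count (log axis) for 13006 genes in grey, with members in colour by particle. Dotted lines mark 2-fold. The members stay between -0.29 and 0.40, inside the cloud of all genes.

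By role, the core particle leaned to higher and the regulatory particle to lower counts in the BPA input. Of the 14 constitutive core subunits, 11 were higher in the BPA input, with a median log2 ratio of 0.03. Of the 17 subunits of the regulatory particle, 11 were lower, with a median of -0.03. A ratio above 1 was found for 50.6% of genes in the depth range. The summed counts went from 13934 to 14254 in the constitutive core, a ratio of 1.02 (0.999 to 1.05), and from 21558 to 21276 in the regulatory particle, 0.987 (0.968 to 1.01). Both intervals hold 1, and the difference between the particles was not tested.

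In the alpha ring, 6 of 7 subunits were higher in the BPA input, Psma4 being the exception (1385 and 1334 counts). Psma5 stood out in this ring. It had 936 counts in the Ctrl and 1047 in the BPA input, 1.12-fold higher (1.02 to 1.22). Among genes within 1.5-fold of its depth, 14.5% had a ratio at least as large in size.

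In the constitutive beta ring, 5 of 7 were higher, with a median log2 ratio of 0.08, and the proteolytic subunits were among them. Psmb5 had 916 and 965 counts (1.05-fold, 0.961 to 1.15). Psmb6 had 343 and 368 counts (1.07-fold, 0.924 to 1.25). Psmb7 had 694 and 753 counts (1.09-fold, 0.977 to 1.20). All 3 intervals hold 1.

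The immunoproteasome subunits lay on the other side. Psmb9 had 144 counts in the Ctrl and 127 in the BPA input (0.882-fold, 0.689 to 1.13). Psmb10 had 203 and 185 counts (0.911-fold, 0.743 to 1.12), and Psmb8 had 97.9 and 93.03 (0.949-fold, 0.707 to 1.27). Their sum was 445 and 405 counts, 0.910-fold (0.794 to 1.04). Psme2, which with Psme1 forms the interferon-inducible cap, was the lowest member of all with at least 50 counts: 115 and 94.0 counts, 0.817-fold (0.616 to 1.08). Its partner Psme1, whose locus lies 2400 bp away in the opposite orientation, had 477 and 490 counts (1.03-fold, 0.904 to 1.17). Thus 4 of the 5 interferon-inducible members were lower, each with an interval that holds 1. Among markers of other cells, 4 of 5 astrocyte markers were also lower in the BPA input, with intervals below 1: S100b was 0.886-fold, Gja1 0.889-fold, Aqp4 0.948-fold and Gfap 0.964-fold. Of the 5 microglial markers, 3 were higher and 2 lower. Of the 7 neuronal markers, 5 were higher, with intervals above 1, and 2 lower (Gad1 and Map2), with intervals that hold 1. The part of these cell types in the values of the inducible and the other members was not tested.

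In the ATPase ring, 3 subunits were higher and 3 lower. Psmc5 was furthest from its ring. It had 548 counts in the Ctrl and 665 in the BPA input, 1.21-fold higher (1.08 to 1.36), and 3.42% of genes of like depth had a ratio at least as large in size. The other 5 ATPases lay between 0.952-fold (Psmc2) and 1.01-fold (Psmc4). Among non-ATPase subunits, 8 of 11 were lower. Psmd8, a lid subunit, had 1082 and 945 counts, 0.873-fold (0.800 to 0.954), and 7.33% of genes of like depth had as large a ratio. Psmd11 came next with 1206 and 1112 counts (0.922-fold, 0.849 to 1.001).

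The highest ratio of all belonged to a chaperone. Psmg2, which pairs with Psmg1 to help build the alpha ring, had 126 counts in the Ctrl and 167 in the BPA input, 1.33-fold higher (1.05 to 1.68). Psmg1 had 312 and 308 counts (0.987-fold, 0.841 to 1.16). Of genes at the depth of Psmg2, 9.29% had a ratio as large. Psmc3ip, the name match outside the proteasome, had 50.5 and 65.4 counts (1.30-fold, 0.885 to 1.92), and its locus is shared with Mlx on the opposite strand.

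**Figure D3:**
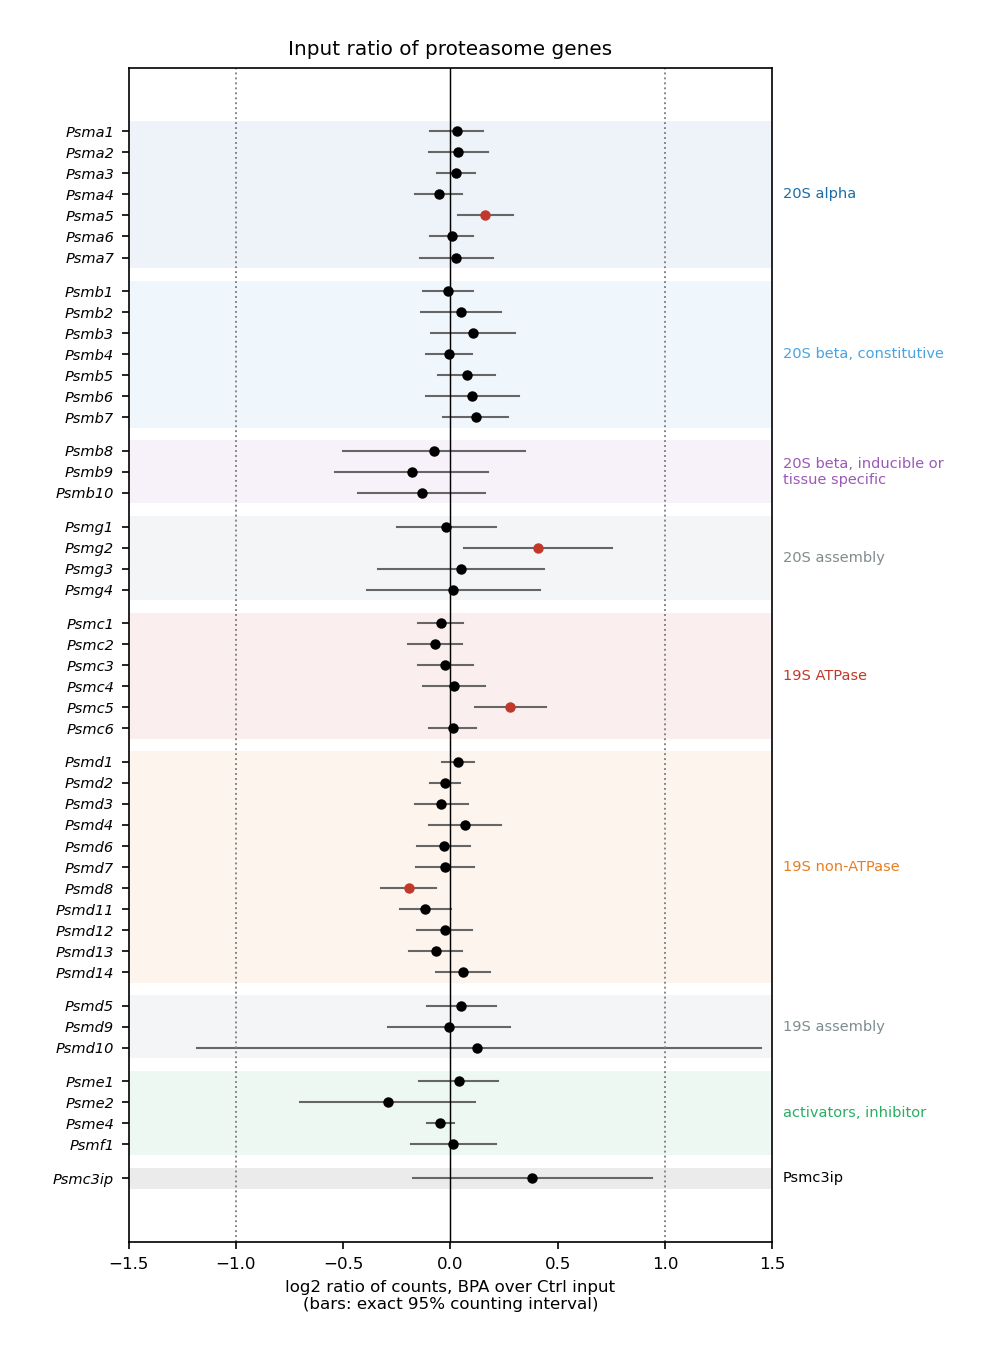
Log2 ratio of counts, BPA over Ctrl input, for the 46 members by role, with exact 95% counting intervals as bars and dotted lines at 2-fold. Red points mark Psma5, Psmc5, Psmd8 and Psmg2, the 4 members whose interval leaves out 1. Psmd10, with 11.1 and 12.3 counts, has the widest interval.

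Genes that act with the proteasome were compared from a list of 26 names, of which 21 matched and 20 had a mean of at least 10 counts. Of these, 7 were higher and 13 lower in the BPA input, with a median log2 ratio of -0.04 and none past 2-fold. The list holds deubiquitinases, ubiquitin receptors and regulators such as Nfe2l1, the transcription factor that raises proteasome genes when proteolysis fails. Named outside the rule for its role, Nfe2l1 had 1692 and 1725 counts (1.02-fold, 0.953 to 1.09). Among the larger ratios were those of the ubiquitin ligase adaptor Fbxo7 (0.849-fold, 0.732 to 0.984), the deglycosylase Ngly1, which processes Nfe2l1 (0.852-fold, 0.734 to 0.990), and the ubiquitin receptor Adrm1 (1.11-fold, 0.976 to 1.26). In 5 of 20 (25%) the interval left out 1, against 18.7% of all genes in either direction. All 5 were lower in the BPA input, where 9.37% of all genes were lower by that rule. The direction was seen before this last share was chosen, and the difference was not tested.

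Promoters are shown for the members with the highest and the lowest ratio, Psmg2 and Psme2, and for Psmb5, whose chymotrypsin-like site is the main target of proteasome inhibitors. They run from 250 bases before to 50 after the annotated start, from RefSeq on GRCr8, which is not stated to be the build of the deposited files. Capitals mark matches to 4 motifs on either strand: the antioxidant response element core TGACNNNGC (bound by Nfe2l1 and Nfe2l2), the CCAAT box, the GC box GGGCGG and the core of the interferon-stimulated response element (GAAA, any 2 bases and GAAA again). The last motif and the Psmb5 promoter were added after the values were seen. The regions are chr18:63478370-63478669 (plus strand), chr15:33052702-33053001 (minus strand) and chr15:32047330-32047629 (minus strand).
Psmg2: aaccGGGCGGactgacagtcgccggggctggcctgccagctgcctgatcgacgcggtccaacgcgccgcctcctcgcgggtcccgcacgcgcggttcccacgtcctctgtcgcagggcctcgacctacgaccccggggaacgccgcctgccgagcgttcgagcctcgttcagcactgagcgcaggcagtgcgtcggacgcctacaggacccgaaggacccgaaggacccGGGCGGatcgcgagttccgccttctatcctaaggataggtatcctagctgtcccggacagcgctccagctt
Psme2: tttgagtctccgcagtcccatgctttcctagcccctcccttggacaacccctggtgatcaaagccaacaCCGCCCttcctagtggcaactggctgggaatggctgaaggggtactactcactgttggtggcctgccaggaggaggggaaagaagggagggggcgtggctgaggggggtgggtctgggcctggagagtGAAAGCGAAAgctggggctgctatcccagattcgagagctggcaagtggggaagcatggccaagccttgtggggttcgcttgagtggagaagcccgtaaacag
Psmb5: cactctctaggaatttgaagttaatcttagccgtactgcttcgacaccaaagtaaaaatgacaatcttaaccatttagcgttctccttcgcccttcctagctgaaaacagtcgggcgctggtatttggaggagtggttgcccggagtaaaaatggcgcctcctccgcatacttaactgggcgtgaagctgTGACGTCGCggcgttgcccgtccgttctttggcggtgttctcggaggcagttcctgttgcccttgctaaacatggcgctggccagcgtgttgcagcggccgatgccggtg

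The promoter table held 44 of the 49 member symbols. The antioxidant response element core occurred in 8 of 44 (18.2%), against 12.1% of all 33469 promoters, and 3 of the 8 belonged to the 7 constitutive beta subunits (Psmb2, Psmb5 and Psmb6). In Psmb5 it begins 60 bases before the start. The GC box occurred in 32 of 44 (72.7%), against 33.1% of all promoters and 41.8% of those of protein-coding genes, and in all 7 alpha-ring promoters of the table (Psma1 to Psma6 and Psma8). CCAAT occurred in 22 of 44, against 37.5%. The interferon-stimulated core occurred in 7 of 44 (15.9%), against 3.92%, and among them were Psmb8, Psmb10 and Psme2, 3 of the 5 interferon-inducible members. In Psme2 it begins 53 bases before the start. Of the 100 matches, 3 overlapped a match to another motif. A match is a description of the letters and says nothing of binding in these cells.

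The peak lists show where m6A was found in each condition. Among proteasome genes the particles stood apart, in both lists. None of the 17 core subunits had a peak in the Ctrl list and 2 had one in the BPA list, whereas 10 and 12 of the 17 subunits of the regulatory particle had one. Over all genes with a mean FPKM of 10 to 200, 35.8% had a peak in the Ctrl list, and 36.8% in that of exposed neurons. With peaks of a score of at least 100 (the score being -10 × log10 of the caller's p), 0 core subunits and 6 regulatory subunits had a peak in each list. The share of all genes with a peak at that score was not computed, so these last counts stand without a background. No test was run, since subunits are not replicates.

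Transcript length moved with this contrast. The length implied by count and FPKM had a median of 0.856 kb (0.549 to 3.70) for core and 1.5003 kb (1.18 to 3.55) for regulatory subunits. In the FPKM range above, a peak in the Ctrl list was found in 24.4% of genes under 1.1 kb, 30.1% of those from 1.1 to 2 kb and 42.5% of longer ones. Of the regulatory subunits, 6 of 12 from 1.1 to 2 kb and 4 of 5 longer ones had a peak in the Ctrl list. Of the core subunits, 0 of 14 under 1.1 kb and neither of the longer Psma2 and Psma3 had one, and in the BPA list 2 of the 14 did. The part of length in the contrast was not tested further.

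**Figure D4:**
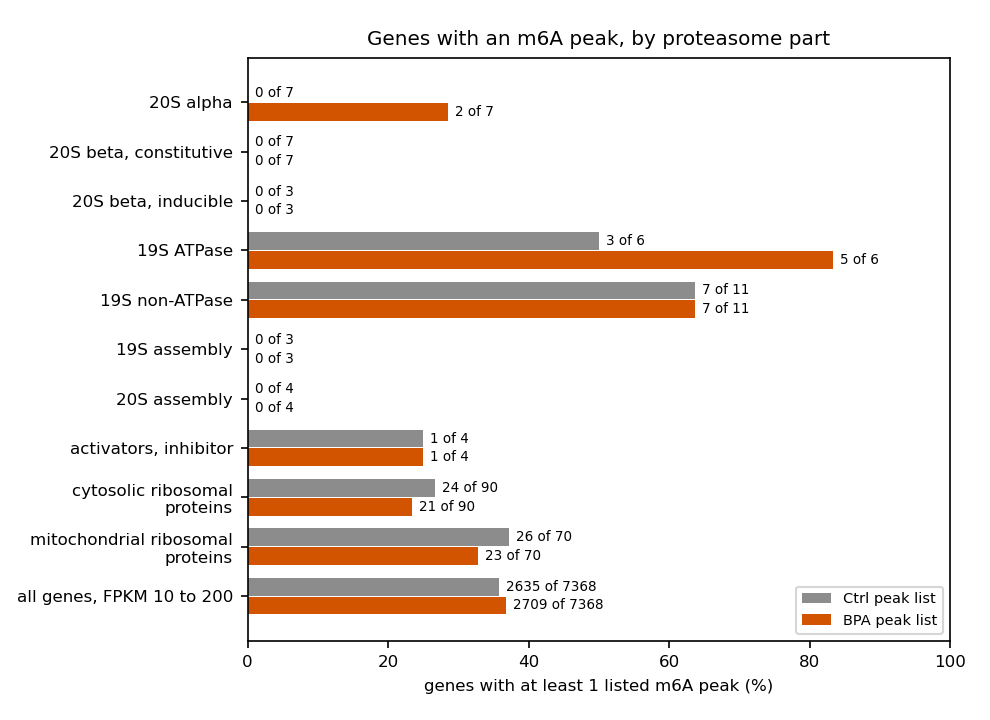
Share of genes (%) with at least 1 listed m6A peak in the Ctrl (grey) and BPA (orange) list, by role of the proteasome gene, for the ribosomal protein families and for all genes with a mean FPKM of 10 to 200, with counts beside each bar. The non-ATPase subunits stay at 7 of 11, and the beta rings and chaperones stay at 0. The ATPase ring goes from 3 of 6 to 5 of 6 genes, some on peaks of low score. With a score of at least 13, its genes with a peak are Psmc1 in the Ctrl list and Psmc1, Psmc3, Psmc4 and Psmc6 in the BPA list. With a score of at least 100, only Psmc1 is left in each list. Shares of all genes at these scores were not computed.

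The highest fold enrichments of IP over input, as the authors' caller gave them, belonged to Psmd4, Psmc1 and Psmd1 in the Ctrl list and to Psmd4, Psmd8 and Psmc1 in the BPA list, all of the regulatory particle. Positions are in the coordinates of the files, whose build is not given in the sources used here. Psmd4, a receptor for ubiquitin chains, had a peak at its 3′ end (chr2:215692987-215693277) with a fold enrichment of 19.9 in the Ctrl and 18.03 in the BPA list. Psmc1 had a 17 bp peak starting 13 bp inside its locus (chr6:133350578-133350594; 17.7 and 15.8) and a second one, chr6:133352771-133352867, with 11.1 and 13.9. Psmd1, the largest scaffold subunit, had 3 peaks between 5693 and 8336 bp from its 3′ end that were in both lists with the same edges. The first of them from the 3′ end, chr9:92878980-92879126, had a fold enrichment of 14.1 and 15.1 and a score of 896 and 790, the highest scores of the family. The median fold enrichment of all listed peaks was 5.92 in the Ctrl and 6.28 in the BPA list, and that of the members' peaks was 9.05 and 8.85.

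Peaks of the remaining regulatory subunits were mostly common to both lists too. Psmd8 had a 400 bp peak at its 5′ end (chr1:89298745-89299144) with 9.83 in the Ctrl and 16.1 in the BPA list, and scores of 95.4 and 520. Psmd3, at chr10:86395552-86395903, had 9.88 and 11.5, and Psmd6, at chr15:16439554-16439759, had 10.5 and 11.4. Lower values belonged to Psmd2 (chr11:87009870-87010032; 5.75 and 6.43), Psmd12 (chr10:95441589-95441752; 6.39 and 4.95) and Psmc6 (chr15:23631640-23631779; 5.75 and 7.55). The scores were 34.6 and 12.3 for Psmd12 and 3.67 and 27.2 for Psmc6. Outside the regulatory particle, peaks in both lists lay in Psme2 (5.21 and 6.25, with scores of 8.53 and 12.8) and in Psme3 (5.85 and 8.63). The Psme3 peak, chr10:89034250-89034591, lies at the start of the locus shared with the G6PC row.

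By position, 14 of the 17 Ctrl peaks (82.4%) shared 1 bp or more with a BPA peak, against 73.3% of all Ctrl peaks, and 14 of the 20 BPA peaks (70.0%) overlapped a Ctrl peak, against 73.4%. Of the 14, 13 had the same edges in both lists and Psme2 was the other.

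Peaks found in 1 list had a lower median score, 5.67 in the Ctrl and 26.1 in the BPA list, where shared ones had 170 and 306. The scores of both kinds overlapped. In the Ctrl list the lowest score, 3.67, belonged to the shared peak of Psmc6, and in the BPA list the shared peak of Psmd12 had 12.3. The peaks found only in the Ctrl list were those of Psmc5 (fold enrichment 4.70, score 4.31), Psmd2 (8.36, score 5.67) and Psmc1, at chr6:133351799-133351852 (7.30, score 173). Those found only in the BPA list lay in the ATPases Psmc2 (score 3.04), Psmc3 (37.2) and Psmc4 (91.7) and in the alpha subunits Psma4 (15.1) and Psma7. Psma7 had 1 at each end of its locus (9.01 and 90.4). A score of 3.04 stands for a p of 0.497 by the header. All peaks had an FDR of 100% in the lists. Exposure and library cannot be told apart here, since each list comes from 1 library.

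The log2 ratio of the inputs was also set beside the peaks. The 16 measured members with a peak in either list had a median log2 ratio of -0.03, and the 30 without one 0.03. Over all symbols the medians were -0.0056 and 0.0069. Of the 16, 13 were subunits of the regulatory particle, and the part of the particles in this split was not tested. Psmc5, with the highest ratio of its ring, had its only peak in the Ctrl list, with a score of 4.31. Psmd8, with the lowest ratio of its class, had a peak in both lists. Psma5 and Psmg2, the other members whose interval leaves out 1, had no peak in either list.

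Many of the family's peaks sat at the 5′ end of the locus. Leaving out loci shared with other rows, 6 of 13 Ctrl peaks and 9 of 16 BPA peaks lay within 500 bp of it and not of the 3′ end, against 18.3% and 19% of all peaks. Proteasome loci are short, which moves with this share: in loci of the same length range (4295 to 21431 bp), 28.3% of 1514 Ctrl peaks and 28.6% of 1536 BPA peaks were at the start. Peaks beginning or ending exactly at the listed locus start were found in Psmc3, Psmc6, Psmd3, Psmd8, Psmd12 and Psma7. Whether the annotated transcript edges set those of the peaks was not tested.

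**Figure D5:**
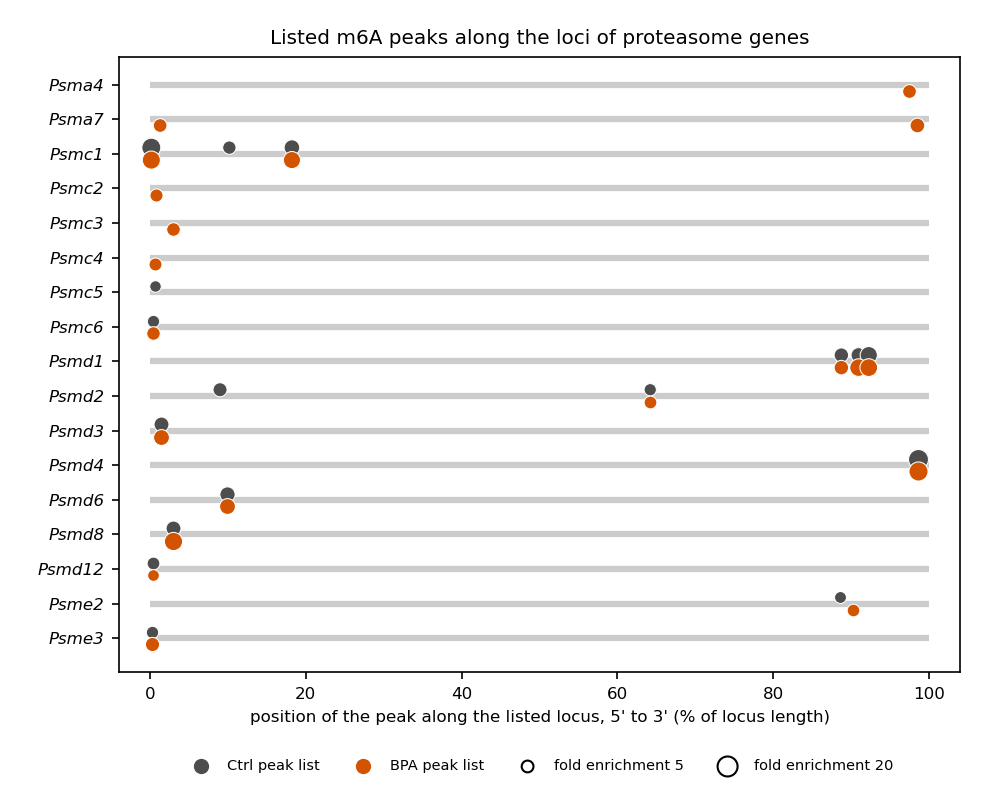
Position of each listed peak along its locus (% of locus length, 5′ to 3′) for the 17 members with a peak, grey for the Ctrl and orange for the BPA list, with point area rising with the authors' fold enrichment. Peaks gather near the 5′ end for most ATPases and for Psmd3, Psmd8 and Psmd12. On this scale those of Psmd1, Psmd4, Psme2 and Psma4 lie toward the 3′ end, though the Psmd1 peaks are 5693 to 8336 bp from it. Psma7 has a peak at each end.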

How the data were processed

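Members, gene lists and comparisons were chosen with earlier results of these data known. The authors deposited, per the file headers, an FPKM and an estimated count per gene for each input, and for each IP library a list of peaks (MACS in the peak identifiers, version not given) with a score, a ratio (fold enrichment, IP over input) and an FDR in percent (100 throughout). The deposited counts are not whole, and 96.4% of values under 300 were within 0.01 of a whole multiple of 1.01 (Ctrl) or 1.02 (BPA). The submitters' processing notes name HISAT2 2.0.4, STAR and cutadapt 1.9.3, with no roles. The sources used here do not give the quantifier, the build or whether counting used strand. Starts are printed 1 higher than in the files.

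Log2((BPA + 1)/(Ctrl + 1)) was computed for genes averaging 10 counts or more, taking for members the row with most reads per symbol, with Clopper-Pearson 95% intervals from rounded counts (scipy 1.17.1). These cover counting error only, and no molecular tags are described. With 1 library per group no test was run. The script was tested on simulated counts. Named genes were the 4 highest and 4 lowest ratios at a mean of at least 50 counts, extremes of FPKM per role, inducible and proteolytic subunits and all members with a peak. Alternatives were other pseudocounts, filters and scalings (edgeR 4.0.16 TMM, DESeq2 1.42.0), FPKM, summed rows, peak thresholds and windows. One gene of the list of proteasome partners is not reported here by name.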

Additional observations from a re-analysis of the deposited data

How the results depend on the processing

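The median log2 ratio of the members stayed between 0.0070 and 0.012 under all 10 alternatives to pseudocount, filter, scaling, unit and rows, and no member passed 2-fold under any of them. TMM shifted all ratios by -0.0024 and DESeq2 size factors by 0. The 129 recomputed ratios of named members and 89 of role medians gave no reversal. With 99% intervals, 2 members rather than 4 had an interval that left out 1, and with TMM factors 5 had. With peaks of a score of at least 100, 6 members had a peak in the Ctrl list (12 with every peak) and 7 in the BPA list (16), and 7 peaks of each list overlapped the other (14), since fewer peaks enter. The shares over all genes and peaks at that score were not computed. The share of peaks at the locus start, with its window of 500 bp and the alternatives of 250 bp, 1000 bp and every locus, was chosen after seeing the data. No paired analysis was possible because each group has 1 library. The single library per group limits every comparison, depth limits Psmd10 and Psmb11, and the shared locus leaves the level of Psme3 uncertain.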
